A study of Homo sapiens with 7 samples.

Results

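The genes described here are 7 of the 20098 protein-coding genes of the GRCh37 annotation, chosen because K562 cells are known to carry them in rearranged chromosome segments. BCR, ABL1, NUP214 and XKR3 take part in the gene fusions of the line, and CDKN2A, CDKN2B and MTAP lie in a segment of 9p21 that the line is known to have lost. For each gene, the CTCF peaks that overlapped it or lay within 50 kb were collected from 2 deposited peak lists, and the number of peaks per Mb in 1 Mb around it was set against its chromosome.

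K562 is an established human line derived from chronic myelogenous leukaemia. Chromatin was immunoprecipitated with an antibody to CTCF, or with IgG as background, from non-treated (control) cells and from cells kept for 24 h in 10 µM pyridostatin (PDS), a small molecule that stabilises G-quadruplexes (G4s). There were 7 samples: 2 CTCF and 1 IgG of control cells, and 2 CTCF and 2 IgG of PDS-treated cells. The peaks had been called once per condition on both CTCF samples together, so the lists hold no replicate error and no read depth, and every comparison below is a description without a test. The control list held 33094 peaks with a median fold over IgG of 26.5 and a median width of 360 bp, and the PDS list held 32917 peaks with a median fold of 16.7 and a median width of 300 bp. Since each list was scaled to its own IgG, folds were compared between lists only as percentiles, where 100% is the highest fold, or the smallest p-value, of the own list.

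CTCF is a zinc-finger protein that binds a GC-rich motif, holds chromatin loops together with cohesin and separates neighbouring domains. In its transcript, BCR-ABL1 joins the first part of BCR, up to exon 14 in K562, to ABL1 from exon 2 on. It gives an always active tyrosine kinase that drives growth through GRB2, CRKL and STAT5. Copies of this fusion and of the neighbouring DNA of 9q34 are known to be amplified in the line. CDKN2A encodes the CDK4 and CDK6 inhibitor INK4A and the MDM2 inhibitor ARF, CDKN2B encodes a second inhibitor of these kinases, and MTAP cleaves methylthioadenosine for the salvage of methionine. The lists do not give the number of DNA copies, and its part in the counts and folds below was not tested.

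Around BCR, ABL1 and NUP214 the lists were crowded with peaks, and most of these peaks had some of the lowest folds of their list. Around XKR3, CDKN2A, CDKN2B and MTAP there was no peak within 50 kb in either list. Counted once each, 68 control peaks and 83 PDS peaks lay within 50 kb of the 7 genes, which is 0.205% and 0.252% of the lists. Of all protein-coding genes, 13% had no control peak and 16% no PDS peak within 50 kb, so that the 4 genes without a peak were among 2615 and 3222 such genes.

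The sequences that follow are those by which the peaks at the amplified genes and the empty 9p21 segment can be compared. They were read from GRCh37, 5′ to 3′ on the strand of the match, and the capitals mark the 15 bases that match the CTCF consensus on either strand. The consensus was held by 17.5% of all control peaks and 14.8% of all PDS peaks. The first 5 lie in control peaks within 50 kb of BCR or ABL1, and the last 2 lie in and beside MTAP, where no peak was called.
BCR intron 8, chr22:23624180-23624194, minus strand: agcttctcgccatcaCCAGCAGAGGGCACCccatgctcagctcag
BCR intron 1, chr22:23583285-23583299, minus strand: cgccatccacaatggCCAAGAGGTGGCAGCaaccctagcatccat
BCR intron 12, chr22:23631560-23631574, minus strand: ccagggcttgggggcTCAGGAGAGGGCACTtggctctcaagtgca
Upstream of BCR in RAB36, chr22:23498714-23498728, plus strand: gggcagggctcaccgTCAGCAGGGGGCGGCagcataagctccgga
Upstream of ABL1, chr9:133582907-133582921, plus strand: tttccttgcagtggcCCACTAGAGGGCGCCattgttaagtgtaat
Upstream of MTAP, chr9:21789603-21789617, minus strand: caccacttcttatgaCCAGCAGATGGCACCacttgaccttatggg
MTAP intron 1, chr9:21814039-21814053, plus strand: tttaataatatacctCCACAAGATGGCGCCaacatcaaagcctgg

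Motifs of G4s were counted where 4 runs of 3 or more G, on either strand, were separated by 1 to 7 bases each. In the next 3 sequences, 1 motif before each gene start, the capitals mark the G runs.
Upstream of BCR, chr22:23519735-23519756, minus strand: GGGcatGGGcatGGGcatGGGG
Upstream of ABL1, chr9:133588384-133588403, plus strand: GGGcGGGGccgaGGGcGGGG
Upstream of CDKN2A, chr9:21995452-21995478, minus strand: GGGGagtcGGGGtgtctGGGcgcGGGG
The BCR motif was inside a peak of both lists. Of the other motifs near the BCR start, 2 that lay nearer to it overlapped a control peak and no PDS peak. The ABL1 and CDKN2A motifs were inside none.

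BCR, whose protein has kinase and GTPase-regulating activity, spans chr22:23521891-23660224 on the plus strand. It had 30 control peaks and 37 PDS peaks within 50 kb, of which 17 and 20 overlapped the gene itself. Over all protein-coding genes the median was 3 peaks in both lists, and the highest counts were 42 and 47. Measured per 100 kb of gene and flanks, BCR held 12.6 control and 15.5 PDS peaks, more than 99.7% and 99.8% of protein-coding genes. The median fold of its peaks was 7.50 for control and 7.26 for PDS, at the 3.05 and 4.29 percentile of the lists, so the number of peaks was high and their enrichment low in both.

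A few peaks of BCR had p-values among the smallest of their lists. The peak at the start of the gene, chr22:23518681-23522940 in the control list, was 4260 bp wide, with a fold of 24.4 and a p-value of 3.01e-60, which is rank 15 of the control list. Its PDS counterpart, chr22:23517451-23522050, was 4600 bp wide, with a fold of 19.6 and a p-value of 2.53e-99, rank 3 of the PDS list. Both peaks covered the printed G4 motif and held 5 and 3 such motifs in all. A peak in intron 8, over the first printed consensus match, had a fold of 35.8 and p-value rank 64 in the control list (chr22:23623261-23625360). In the PDS list the peak there was 3550 bp wide, with a fold of 14.1, a p-value of 2.62e-93 and p-value rank 4 (chr22:23621201-23624750). Of the 30 control peaks, the one in intron 8 alone had a fold above the median of the control list. Of the 37 PDS peaks, 4 were above the median of theirs, all of them at or before the gene start.

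The peaks of BCR ended at exon 14, the last exon of BCR in the fusion transcript. Exon 14 lies at chr22:23632526-23632600, and the last peak of the gene covered it in both lists: chr22:23632021-23633040 with a fold of 13.9 in the control list and chr22:23631351-23633200 with a fold of 12.2 in the PDS list. From the gene start to the end of exon 14, 111 kb held 16 control and 19 PDS peaks by their centres. The remaining 27.6 kb of BCR and the 50 kb after it held 0 in both lists. The next peak after exon 14 started 95.4 kb away in the control list, with a fold of 57.1, and 86.0 kb away in the PDS list, with a fold of 16.8. For the 27.6 kb, a count of 0 allows up to 134 peaks per Mb, and from the gene start to exon 14 there were 145 control (82.6 to 235) and 172 PDS peaks per Mb (103.3 to 268), given with exact Poisson intervals of 95%. All intervals here cover counting error only and take neighbouring peaks as independent. The 500 kb before BCR held 208 control peaks per Mb (170 to 252) and the 500 kb after exon 14 held 22 (11 to 39.4). The PDS list gave 254 (212 to 302) and 22 (11 to 39.4). The median fold percentile was 7.06% before BCR and 71.4% after exon 14 in the control list, and 8.84% and 72.5% in the PDS list. These stretches were laid out after the values had been seen.

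ABL1, the tyrosine kinase gene of 9q34, spans chr9:133588430-133763062 on the plus strand. It had 23 control peaks and 25 PDS peaks within 50 kb, with medians of fold at the 7.68 and 4.37 percentile. The 4 peaks before the gene lay at or between PRDM12 and EXOSC2, with medians of fold at the 40.4 and 69.0 percentile. Their folds ranged from 14.8 to 59.6 in the control list and from 17.8 to 31.3 in the PDS list. The one nearest to ABL1, chr9:133582501-133582980, held the printed consensus match in the control list, while its PDS counterpart ended just before it. The first peak inside the gene began 19.3 kb after its start in the control list and had a fold of 4.48. In the PDS list it began 19.2 kb after the start and had a fold of 8.40. From there on, every control peak within 50 kb of ABL1 lay below the median fold of its list, and so did every PDS peak except 2, at folds of 16.9 and 19.9.

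**Figure D1:**
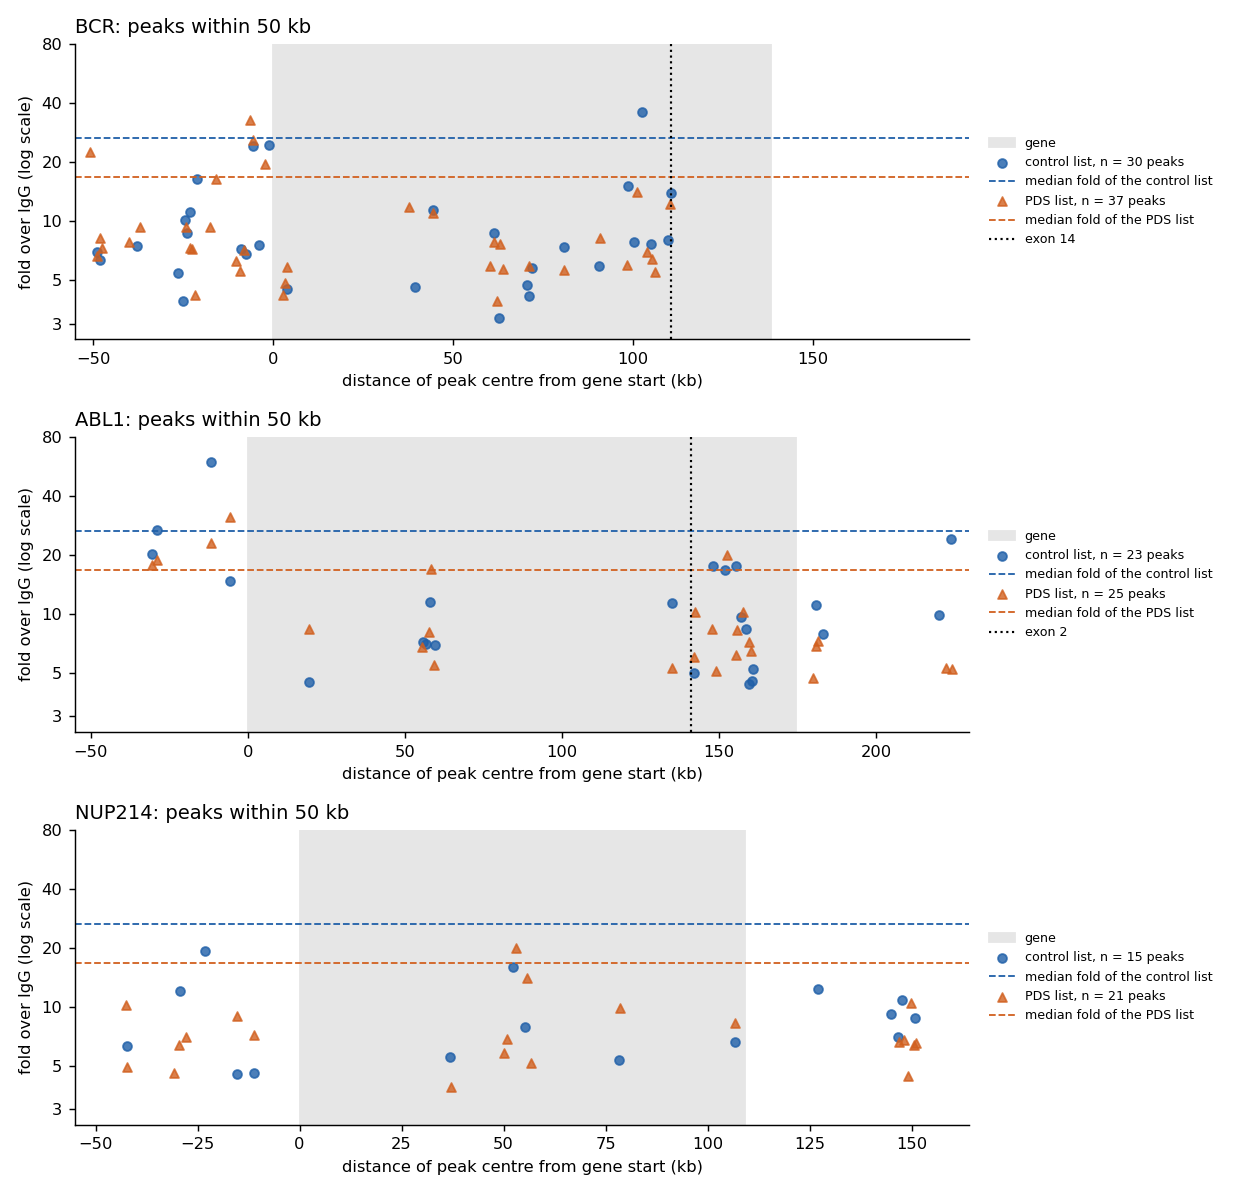
Fold over IgG (log scale) of every peak within 50 kb of BCR, ABL1 and NUP214 against the distance of its centre from the gene start (kb), for the control list (circles) and the PDS list (triangles). Grey marks the gene, dashed lines the median fold of each list (26.5 and 16.7), and dotted lines BCR exon 14 and ABL1 exon 2: the peaks of BCR stop at exon 14, and those of ABL1 drop in fold after the gene start.

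The fusion transcript holds ABL1 from exon 2 (chr9:133729451-133729624) on. The lists do not show where the DNA of the fusion is joined. From exon 2 to the gene end, 33.6 kb held 9 control and 10 PDS peaks, or 268 (122 to 508) and 298 (143 to 547) per Mb. Peaks covered 31.4% and 33.0% of these bases. The longer stretch from the gene start to exon 2, 141 kb, held 6 peaks in each list, or 42.5 per Mb (15.6 to 92.6). The intervals of the denser and the sparser stretch did not overlap in either list. Folds were low in both stretches. The median fold percentile was 2.10% for control and 5.12% for PDS before exon 2, and 5.02% and 6.07% from exon 2 on. The broadest control peak of the gene, chr9:133737181-133743240, was 6060 bp wide, covered exon 4 and had a fold of 16.8 and a p-value of 6.10e-61, rank 14 of its list. The broadest PDS peak, chr9:133738601-133743350, had a fold of 19.9 and a p-value of 4.96e-74, also rank 14.

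NUP214, a protein of the cytoplasmic face of the nuclear pore, spans chr9:134000960-134110050 on the plus strand. It had 15 control and 21 PDS peaks within 50 kb, of which 5 and 8 overlapped the gene, and the medians of fold lay at the 3.90 and 3.07 percentile. No control peak near it reached the median fold of its list, and 1 PDS peak did. That peak, chr9:134053101-134055150 over exon 24, had a fold of 19.9 and p-value rank 360. In the control list the peak there, chr9:134051401-134054940, had a fold of 15.9, a p-value of 4.92e-57 and p-value rank 17. The low folds went on into the 50 kb after NUP214, with 5 control and 6 PDS peaks at medians of 9.21 and 6.58. The first peak beyond, chr9:134211601-134212200 in both lists, had folds of 38.2 and 48.3, at the 76.4 and 99 percentile.

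XKR3 encodes a membrane protein of the XK-related family and lies on the minus strand at chr22:17264302-17306301, in a fusion with NUP214 in K562. It had no peak within 50 kb. The nearest peak began 91.8 kb from the gene in both lists, chr22:17398081-17398680 with a fold of 39.0 in the control list and chr22:17398101-17398600 with a fold of 14.9 in the PDS list. It was also the first peak of chromosome 22: the 1.21 Mb between the first sequenced base of the chromosome and XKR3 held 0 peaks. Of this stretch 1.06 Mb are sequenced. Reads that did not map uniquely had been removed by the authors, and the lists do not show how many were lost there. In 1 Mb around XKR3 there were 7 control and 11 PDS peaks, with medians of fold at the 66.4 and 38.5 percentile. Neither the crowding nor the low folds seen at BCR, ABL1 and NUP214 were present there, so in these lists XKR3 did not go with the other fusion genes.

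**Figure D2:**
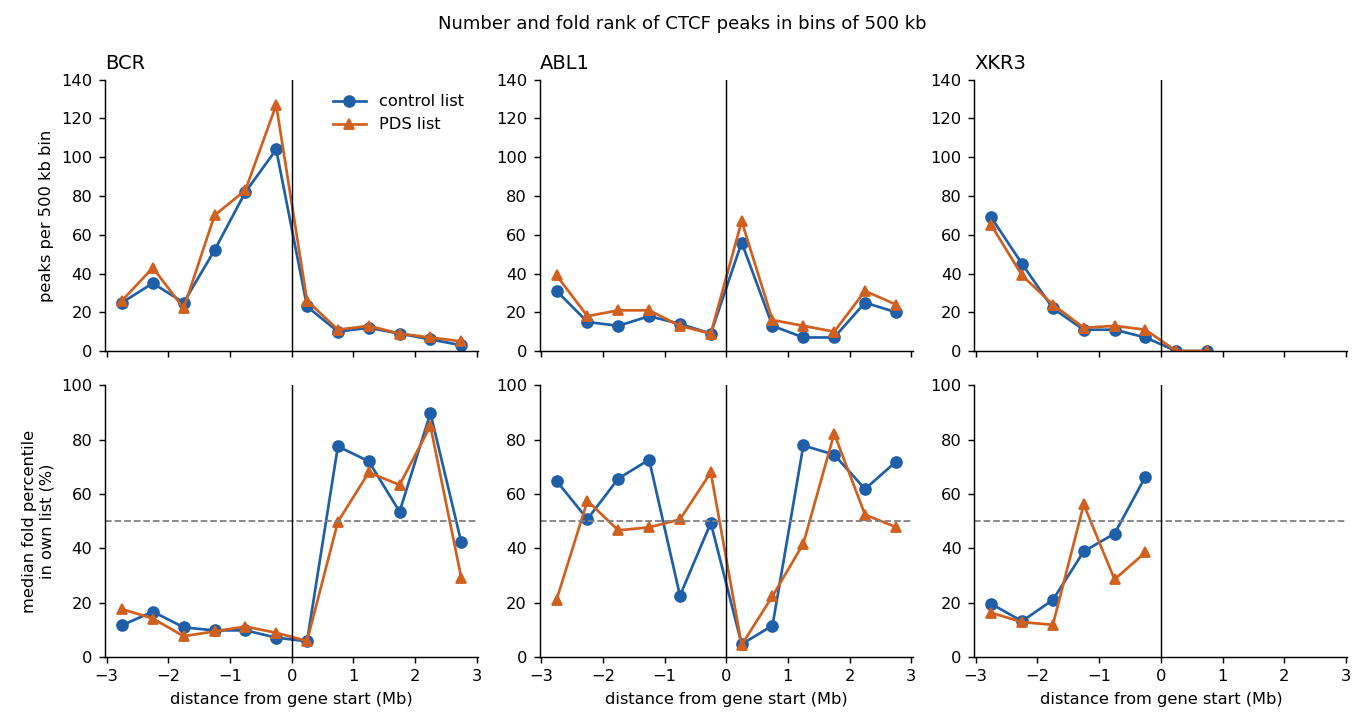
Number of peaks (upper panels) and median fold percentile within the own list (lower panels) in bins of 500 kb at distances from the starts of BCR, ABL1 and XKR3 (Mb, in the direction of transcription), for the control list (circles) and the PDS list (triangles). In the 500 kb before BCR there were 104 and 127 peaks at a median percentile under 10%. The bin after the start of ABL1 held 56 and 67, and bins after the start of XKR3 held 0. The lines of the XKR3 panel end 1000 kb after its start, before the bin in which the sequenced part of chromosome 22 ends.

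The stretch with many peaks of low fold was wider than the genes. On chromosome 22 the bins of 500 kb over the 3 Mb before BCR held 22 to 127 peaks, at median fold percentiles of 7.06% to 17.6%, in both lists. In the bin from 500 to 1000 kb after the start of BCR there were 10 control and 11 PDS peaks at the 77.5 and 49.8 percentile. On chromosome 9 the change was narrower. The bin of 500 kb before ABL1 held 9 peaks in each list, at the 49.4 and 68.0 percentile. The bin after the start held 56 and 67, at 4.63% and 4.37%. The bin from 500 to 1000 kb held 13 and 16, still low in fold at 11.5% and 22.4%. The bin from 1000 to 1500 kb held 7 and 13, at 77.9% and 41.7%.

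The neighbours of the 3 crowded genes differed in their counts. In the stretch of low folds, LAMC3, a laminin chain, had 26 control and 31 PDS peaks within 50 kb at median fold percentiles of 5.12% and 4.19%, the highest counts of any protein-coding gene of chromosome 9. FIBCD1 had 20 and 23 and AIF1L 17 and 21 on the same arm. QRFP, a neuropeptide gene, had 19 and 21. On chromosome 22, RSPH14 had 22 and 28, RAB36 18 and 24, and GNAZ, a G protein subunit, 19 and 23. FAM78A, in the low folds after NUP214, had only 6 and 7, at median fold percentiles of 6.18% and 2.74%. Outside the stretch, ASS1, the argininosuccinate synthase gene before ABL1, had 4 and 5 peaks. RAPGEF1, beyond NUP214, had 5 and 5, and IGLL1, beyond BCR, had 4 and 4. PLPP7, also beyond NUP214 but with peaks of the stretch within its 50 kb, had 9 and 11, more than 92.3% and 94.3% of protein-coding genes. Of the 14 listed genes of 9q34 all had a peak, with a median of 6 in both lists, and of the 9 listed genes of 22q11 all but CCT8L2, a neighbour of XKR3, had one.

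In 1 Mb centred on each gene, density was set against the whole chromosome per sequenced Mb. BCR had 100 control peaks per Mb, 3.51 times chromosome 22 (95% interval 2.86 to 4.27), and 122 PDS peaks per Mb, 4.04 times (3.35 to 4.82). ABL1 had 74.5 and 87.1, which is 7.01 times (5.47 to 8.84) and 8.04 times (6.4 to 9.97) chromosome 9. NUP214, whose window shares much of that of ABL1, had 73.0 and 87.0, or 6.86 and 8.03 times. None of the 1100 windows of 1 Mb on chromosome 9, placed every 100 kb, was denser than that of ABL1 in either list, while 20 and 13 of 335 windows on chromosome 22 were denser than that of BCR. Some of these denser windows lay in the crowded stretch before BCR. There, the bins from 1000 to 500 kb and from 500 to 0 kb before its start held 82 and 104 control peaks, and 83 and 127 PDS peaks. XKR3 had 7.47 and 11.7 peaks per Mb, 0.262 (0.105 to 0.541) and 0.388 (0.194 to 0.694) times chromosome 22. The density of chromosome 22 includes the crowded stretch itself. From 3 Mb before BCR to exon 14 lay 339 of its 993 control peaks and 390 of its 1055 PDS peaks. Its median window held 20 peaks per Mb in both lists, against 28.5 and 30.2 for the whole chromosome.

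Much of the excess was due to peaks of low fold. When only peaks at or above the median fold of their list were counted, a choice made after the values had been seen, the control density was 1.04 times that of the chromosome for BCR, 0.954 for ABL1 and 1.27 for NUP214. The PDS list kept a part of the excess, with 1.64, 2.61 and 2.87 times.

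**Figure D3:**
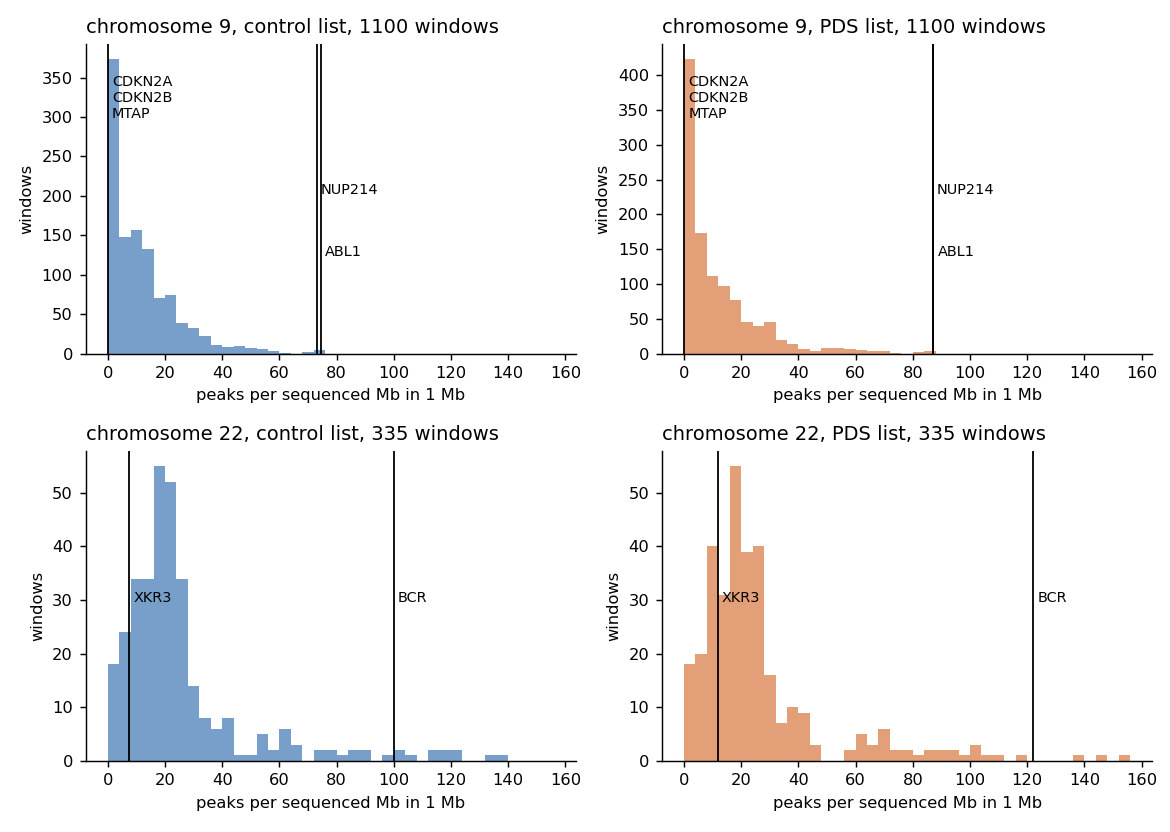
Windows of 1 Mb by their number of peaks per sequenced Mb, on chromosome 9 (1100 windows, upper panels) and chromosome 22 (335 windows, lower panels), for each list. Vertical lines mark the windows centred on the 7 genes: ABL1 and NUP214 stand at the right end of chromosome 9, BCR far to the right on chromosome 22, XKR3 to the left, and CDKN2A, CDKN2B and MTAP at 0. The densest windows of chromosome 22, up to 195 (control) and 226 (PDS) peaks per Mb, lie beyond the last bar and are not drawn.

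The peaks at these genes stood lower in their lists by fold than by p-value. Of the 68 control peaks, 47 were among the 10% of the list with the lowest fold, against 10% of all control peaks, and of the 83 PDS peaks 57 were, again against 10%. That is 69.1% (57.4% to 78.8%) and 68.7% (58.1% to 77.6%, Wilson intervals). By fold the median percentile of these peaks was 3.94% for control and 3.99% for PDS, whereas by p-value it was 47.3% and 39.6%. In the control list, 6 of the 68 were at once among the 10% with the lowest fold and the 10% with the smallest p-values, a combination found in 0.0695% of all control peaks (23 peaks). In the PDS list 3 of the 83 were, against 0.0759% (25 peaks).

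Wide peaks were more frequent at these genes, although the median width was not larger. It was 360 bp near the genes and in the whole control list, and 250 bp against 300 bp for PDS. Of the 68 control peaks 14 were 1 kb or wider, 20.6% against 4.1% of the control list. Of the 83 PDS peaks 12 were, 14.5% against 6.74% of the PDS list. The wide control peaks had a median fold percentile of 12.4% and a median p-value percentile of 98.6%, against 62.2% and 88.9% for all wide control peaks. In the PDS list the wide peaks stood at 58.5% by fold and 96.9% by p-value, against 70.8% and 87.7%. The narrower peaks had median fold percentiles of 2.33% and 3.31%.

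**Figure D4:**
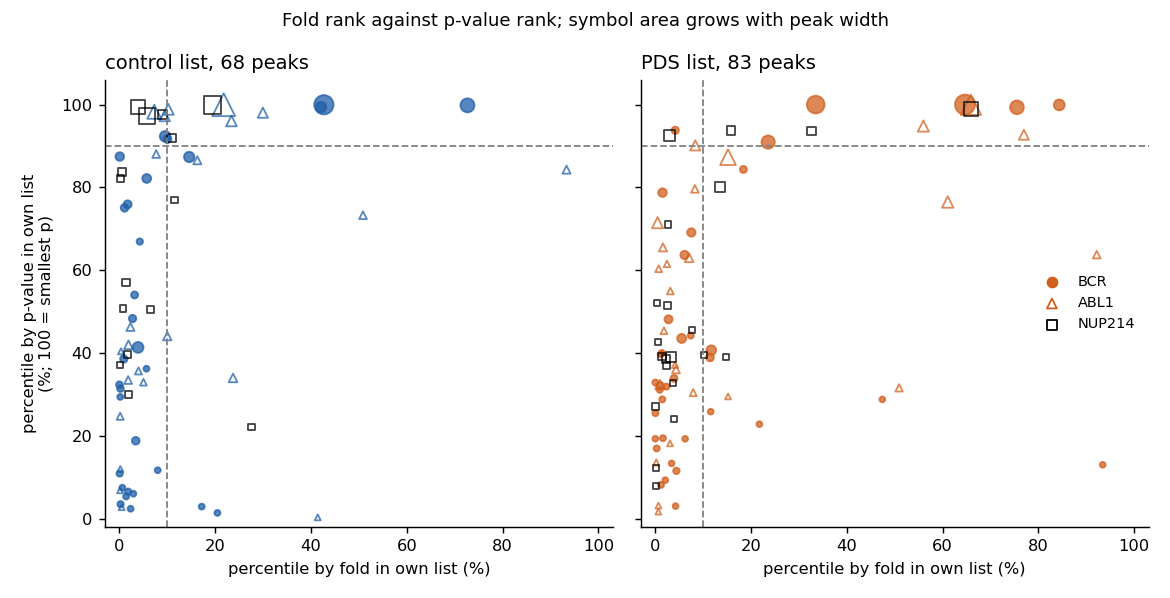
Percentile by fold (x axis, %) against percentile by p-value (y axis, %, 100 for the smallest p) within the own list, for the 68 control and 83 PDS peaks within 50 kb of BCR (filled circles), ABL1 (triangles) and NUP214 (squares), with symbol area growing with peak width. Dashed lines mark the lowest 10% by fold and the 10% with the smallest p-values: 47 control and 57 PDS peaks stand left of the former, and 6 and 3 of these also stand above the latter.

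How often the peaks at these genes overlapped a peak of the other list depended on the rule for an overlap and on the peaks counted. A counterpart, meaning an overlap of at least 1 bp with a peak of the other list, was missing for 19 of the 68 control peaks (27.9%), against 22% of the control list, and for 30 of the 83 PDS peaks (36.1%), against 21.4% of the PDS list. The share with a counterpart was thus 72.1% (60.4% to 81.3%) in the control list, an interval that includes the 78% of the list, and 63.9% (53.1% to 73.4%) in the PDS list, one that does not include the 78.6% of the list. With the centres of peaks at most 100 bp apart the shares were 27.9% (18.7% to 39.6%) for control and 24.1% (16.2% to 34.3%) for PDS, below the 59.6% and 59.9% of the whole lists. For peaks up to the median p-value of their list, the share by an overlap of 1 bp was 78.8% (62.2% to 89.3%) for control and 84.4% (68.2% to 93.1%) for PDS, and both intervals include the shares of all such peaks, 82.9% and 83.5%, so the lower share of the PDS peaks was not seen there. The peaks without a counterpart had a median width of 180 bp for control and 150 bp for PDS, against 180 bp and 100 bp for such peaks of the whole lists.

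The share of peaks with a G4 motif lay near that of the lists. A motif was found in 12 of the 68 control peaks, 17.6% (10.4% to 28.4%) against 16%, and in 12 of the 83 PDS peaks, 14.5% (8.47% to 23.6%) against 17.1%. The share with the CTCF consensus was lower than in the lists. It was found in 5 of the 68 control peaks, 7.35% (3.18% to 16.1%) against 17.5%, and in 4 of the 83 PDS peaks, 4.82% (1.89% to 11.7%) against 14.8%. In 1 of these PDS peaks, which began beyond the 50 kb before BCR, the match lay outside the 50 kb. Seen from the sequence, 4 of the 7 consensus matches within 50 kb of BCR lay in a control peak and 3 in a PDS peak. Near ABL1 it was 1 of 4 and 0 of 4, near NUP214 0 of 1 in both lists, and near XKR3 the sequence held 0 matches. Over the whole genome, 25.1% of 23632 matches lay in a control peak and 21.2% in a PDS peak.

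At 9p21 the lists were empty. MTAP lies at chr9:21802635-21937650 on the plus strand, CDKN2A at chr9:21967751-21995300 and CDKN2B at chr9:22002902-22009304, both on the minus strand. The nearest peak was 1876 kb from MTAP, 2041 kb from CDKN2A and 2077 kb from CDKN2B in both lists. It was the same left flank in each, chr9:19926061-19926300 with a fold of 73.8 in the control list and chr9:19926101-19926350 with a fold of 28.3 in the PDS list. In 1 Mb around each of the 3 genes a count of 0 allows up to 3.69 peaks per Mb, which is at most 0.347 and 0.340 times the density of chromosome 9. Windows without a peak were common there, however, at 22.7% (control) and 24.1% (PDS) of the windows of chromosome 9.

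The length of the empty interval set it apart more than the windows did. It ran from chr9:19926301 to chr9:26744580 in the control list, 6.82 Mb, and from chr9:19926351 to chr9:26892300 in the PDS list, 6.97 Mb. It held no unsequenced run of 10 kb or more. Among intervals without such a run it was the longest of chromosome 9 in both lists, ahead of one of 4.85 Mb and 5.14 Mb, and it ranked 3 of 319 intervals of at least 1 Mb in the genome in the control list and 4 of 363 in the PDS list. The intervals longer than it lay on chromosomes X and 4 in the control list and X, 3 and 4 in the PDS list. The median interval between neighbouring peaks was 28.1 kb and 22.3 kb.

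**Figure D5:**
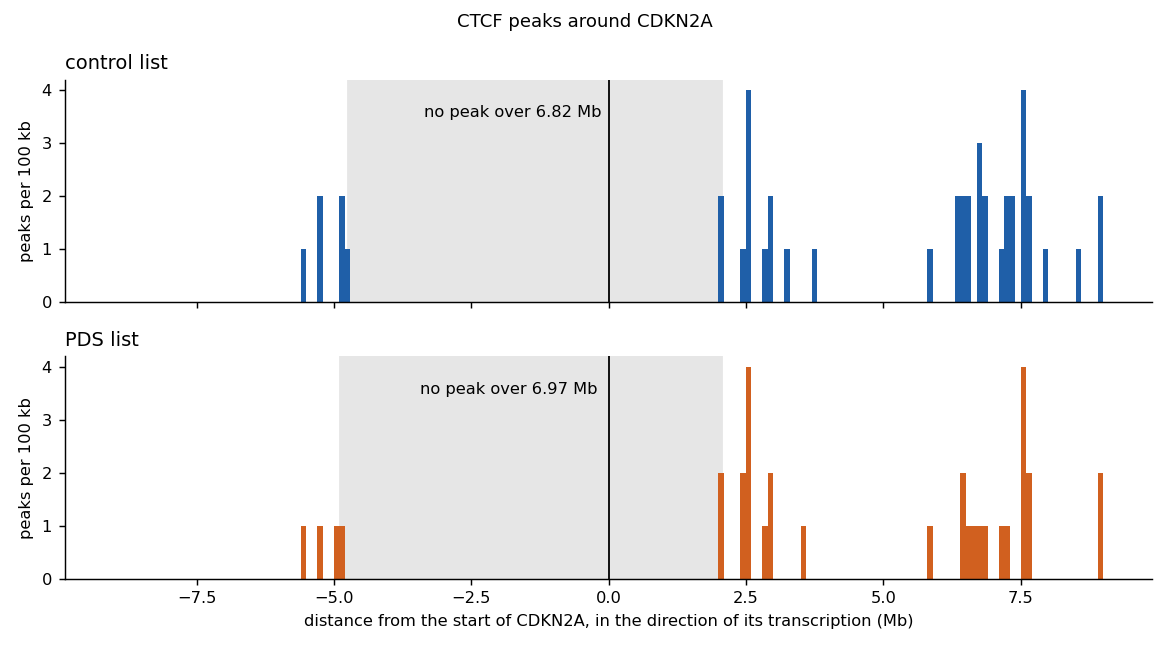
Peaks per 100 kb against the distance from the start of CDKN2A (Mb, in the direction of its transcription, so that the short-arm end is on the right), for the control list (upper panel) and the PDS list (lower panel). Grey marks the interval without a peak, 6.82 Mb and 6.97 Mb long, and no bin on either side held more than 4 peaks.

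The interval held 27 protein-coding genes in both lists. Of these, 16 were type I interferon genes, among them IFNB1, IFNW1, IFNE and IFNA1. MLLT3, a subunit of the super elongation complex, FOCAD, HACD4 and KLHL9 lay before MTAP, and DMRTA1, ELAVL2, an RNA-binding protein of neurons, IZUMO3 and TUSC1 lay after CDKN2B. All 15 listed neighbours of 9p21 and 9p22, including the noncoding genes MIR31HG and CDKN2B-AS1, had 0 peaks within 50 kb in both lists. They lie well inside the interval, so these counts of 0 follow from how it was bounded. The reads were filtered for unique mapping by the authors, which can remove reads from near-identical interferon genes, and the lists do not show how many were lost.

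The sequence of the interval was not free of CTCF consensus matches. In GRCh37 it held 28 matches, or 4.11 per Mb, against 8.86 per Mb on chromosome 9 and 8.33 in the genome. As the interval was bounded by neighbouring peaks, none of them could lie in one. The stretch from 50 kb before MTAP to 50 kb after CDKN2B held 3 of them, and the 2 nearest to the start of MTAP, printed above, lay 13 and 11.4 kb from it. With 1 mismatch allowed, 801 matches were found in the interval. GRCh37 is a reference sequence, so a match there does not show that K562 cells hold it.

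The genes whose proteins act with the members had peaks in both lists. For BCR-ABL1 signalling, the adaptors GRB2, SHC1, CRKL and GAB2 had 6, 13, 13 and 6 control peaks within 50 kb. The exchange factor SOS1 had 5, and the transcription factors STAT5A and STAT5B had 4 and 8. All 7 of these genes also had PDS peaks, from 4 to 14 each, and the median fold percentile of their peaks was 46.3% for control and 30.2% for PDS. CRKL lies on chromosome 22 in the crowded 3 Mb before BCR, and the median fold percentiles of its own peaks were lower, at 17% and 14.1%. GAB2, on chromosome 11, stood at 51.7% in the control list, but at 12.6% in the PDS list, which is below CRKL. For 9p21, the targets CDK4 and CDK6, their partner CCND1 and their substrate RB1 had 6, 5, 5 and 1 control peaks. MDM2, the target of ARF, had 3, and PRMT5 and MAT2A, which handle methyl groups downstream of methionine salvage, had 6 and 2. All 7 had PDS peaks as well, from 2 to 7 each, with median fold percentiles of 55.2% and 55.8%. In none of these 14 genes was a count as high as at BCR, ABL1 or NUP214, or 0 as at 9p21. Per 100 kb of gene and flanks the order differed. SHC1 held 11.6 control and 12.5 PDS peaks, more than ABL1 (8.37 and 9.10) and NUP214 (7.17 and 10.0). CRKL, with 9.53 and 8.07, exceeded ABL1 and NUP214 in the control list only.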

How the data were processed

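Per the labels and the study's methods, the authors aligned reads with Bowtie2 2.2.3 to hg19, kept uniquely mapped reads of high mapping quality without duplicates, and called peaks with PePr. The deposited lists hold, for each peak, a score tied to its fold, the fold over IgG of the same condition (a ratio), and a p-value and q-value. The labels name single-end and the methods paired-end sequencing. The score and q-value were not used. Both lists were read as deposited, and gene positions and exons came from GENCODE v44 on GRCh37, the same build as hg19. Peaks were assigned by distance to the gene (50 kb), density used peak centres per sequenced Mb, and intervals are exact Poisson or Wilson at 95%. The analysis used Python 3.11.15, pandas 2.3.3, scipy 1.17.1 and pyfaidx 0.9.0.4, and motif search, overlap and merging were tested on simulated data. Depth per sample is unknown from the lists, and no test was possible with 1 list per condition. All 7 members are named, with neighbours and pathway partners from fixed lists. Members and lists were chosen with earlier results of these data known. The peaks on sequences not placed in GRCh37 chromosomes were left out of motif shares (24 in each list). One sequence at 9p21 is not reported here.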

Additional observations from a re-analysis of the deposited data

How the results depend on the processing

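No paired analysis was possible because the authors pooled the samples of a condition in peak calling, and for the same reason no replicate could be left out. Of 145 alternative values for 27 results, 114 stayed within the stated range (1.5 times for counts, lengths and densities, the 95% interval for shares and percentiles) and 31 moved. The counts of 0 at 9p21, the densities of 0 there and the length of the empty interval did not move in either list, and neither did the density at BCR, ABL1 and NUP214 with 500 kb windows, the stricter lists (the peaks up to the median p-value), peaks within 200 bp merged or all bases as denominator. The number of peaks near the amplified genes, 68 and 83, fell by construction to 37 and 44 for peaks on the genes, 44 and 52 within 10 kb, and 33 and 32 in the stricter lists. The share with a counterpart, 72.1% and 63.9%, was 35.3% and 30.1% when 50% of both peaks had to overlap. It was 27.9% and 24.1% for centres within 100 bp, and 89.7% and 90.4% where peaks up to 1 kb apart counted. It was 84.4% in the stricter PDS list. For the 50% and 1 kb rules no share of the whole lists was taken, so those values cannot be compared with all peaks. In windows of 2 Mb the density ratio was 4.52 and 5.09 for ABL1 and 4.32 and 5.24 for NUP214. For XKR3 it was 0.141 and 0.0662 in 500 kb. With only peaks at or above the median fold, added after seeing the data, it was 1.04 and 1.64 for BCR, 0.954 and 2.61 for ABL1, 1.27 and 2.87 for NUP214, and 0.403 for XKR3 in the control list. Ranked by p-value, the median percentile was 47.3% and 39.6%. The share with a G4 motif in 200 bp at the peak centre was 8.82% in the control list, which counted as moved, and 9.64% in the PDS list, which did not. With loops of up to 12 bases it was 25.3% in the PDS list, which counted as moved, and 27.9% in the control list, which did not. No share of the whole lists was taken at either of these motif settings, so these values cannot be compared with all peaks. Consensus matches in the empty interval rose from 28 to 801 with 1 mismatch. Where no construction shows it, the cause was not tested. Without read depth or replicate lists, differences between the control and PDS lists cannot be told from sampling.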

Other observations

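The surroundings of the fusion genes took a large share of the peaks with the smallest p-values. From 3 Mb before BCR to exon 14, a stretch of 3.11 Mb, there were 339 control and 390 PDS peaks, 1.02% and 1.18% of the lists, but 27 and 23 of the 100 peaks with the smallest p-values of each list. From the start of ABL1 to 50 kb after NUP214, 572 kb, there were 62 and 74 peaks, with 7 and 6 of these 100. In the same 2 stretches 52.5% and 67.7% of the control peaks, and 50.5% and 64.9% of the PDS peaks, were among the 10% of their list with the lowest fold. Of the 23 control peaks of the whole list that were among both the 10% with the lowest fold and the 10% with the smallest p-values, 12 lay in these stretches, and of the 25 such PDS peaks 7 did. The stretches were laid out after the values had been seen, and the cause was not tested.

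Over the 3 Mb of 22q11 next to XKR3, on the side of BCR, the peaks changed in number and fold. Going away from XKR3 against its direction of transcription, the bins of 500 kb held 7, 11, 11, 22, 45 and 69 control peaks, with median fold percentiles of 66.4%, 45.4%, 38.8%, 21%, 13.1% and 19.5%. The PDS list gave 11, 13, 12, 24, 39 and 65 peaks at 38.5%, 28.5%, 56.2%, 11.8%, 12.8% and 16.2%. In both lists the last 2 of these bins had the highest counts of the 6 and fold percentiles under 20%. The counts did not go on rising to BCR: the bins from 3 to 1.5 Mb before its start held 25, 35 and 25 control and 26, 43 and 22 PDS peaks, and the bin next to it 104 and 127.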
